A study of Mus musculus with 10 samples.

Results

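Collagens, laminins and the genes of the meningeal matrix were followed in RNA sequencing of libraries labelled as mouse medial habenula, during nicotine withdrawal. The set comprised each gene whose mouse symbol names a collagen chain (Col, a number, a and a number) or a laminin chain (Lama, Lamb or Lamc and a number), together with Dcn, Lum, Ogn, Igf2, Slc6a13, Fn1, Bgn, Fbln1, Fbln2, Fbn1, Sparc and Postn. A mean of at least 0.3 FPKM (read fragments relative to gene length and sequencing depth) over the 10 libraries was required. Of 68 genes with such a symbol, 61 passed that level, among 19251 genes of the whole table that did. They held 38 collagens, 10 laminins, 12 other matrix or meningeal genes and Col4a3bp, which matches by its symbol only and encodes a ceramide transfer protein. The 7 genes left out were Col10a1, Col6a6, Col22a1, Col6a5, Lamb3, Col6a4 and Col24a1, with means up to 0.284 FPKM in Col24a1, and Col28a1, at 0.327 FPKM, was the lowest gene kept.

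The withdrawal group was made of 6 wild-type mice that had nicotine ditartrate (4 mg/kg per dose, intraperitoneal) in 2 daily doses over 14 days, followed by saline starting on day 15. The control group was made of 4 wild-type mice given saline for the same period, and the habenula of both groups was taken on day 17. Each mouse gave 1 library, so the replicates are animals, and no sex, age, litter or batch is given in the labels. The labels describe the material as sorted cholinergic neurons in one place and as habenula tissue in another.

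The extracellular matrix of the brain is concentrated at its borders. Basement membranes, sheets of laminin and type IV collagen, surround every blood vessel and line the surface under the meninges. Fibrillar collagens and small proteoglycans such as decorin are made mainly by fibroblasts of the meninges, of the larger vessels and of the choroid plexus. The medial habenula borders the third ventricle and lies next to the attachment of the choroid plexus. In bulk RNA, fewer cells of a type and less RNA per cell cannot be told apart.

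Library totals ran from 15023448 to 22026333 counts. The 61 genes took 0.217% to 0.273% of the counts in the withdrawal libraries, against 0.101% in control 2 and up to 0.263% in the other controls. Withdrawal 2 and control 2 stood apart: Chat, the acetylcholine-synthesising enzyme of the labelled neurons, had 0.197 CPM (counts relative to depth, after TMM normalization) in withdrawal 2 and 0.165 CPM in control 2. It had 26.4 to 40.4 CPM in the other withdrawal libraries and 27.7 to 35.6 CPM in the other controls. These 2 libraries therefore go against the labelled cell type. Results are also given for the 8 libraries without them, a choice made with earlier results of these data known. A sum over 8 hippocampal and cortical neuron markers reached 2200 CPM in control 2. Withdrawal 2 had 496 CPM for it, and the remaining libraries lay between 226 and 610 CPM. Control 2 was also the highest library for the astrocyte sum, at 5451 CPM, and the lowest for the ependyma sum, at 8.31 CPM. Withdrawal 2 had 4647 CPM for astrocytes and 145 CPM for ependyma. Markers of other cell types were present throughout: the summed level of 8 oligodendrocyte markers in the 8 libraries was 6096 to 10377 CPM in withdrawal and 11549 to 12731 CPM in control. A sum was also taken of 16 fibroblast and arachnoid markers that are no members of the set. They were Slc47a1, Slc22a6, Slc22a8, Slc13a3, Slc6a20a, Aldh1a2, Foxc1, Foxc2, Foxd1, Tbx18, Twist1, Islr, Mgp, Pdgfra, Crabp2 and Nupr1. All 16 passed the FPKM minimum and none was at 0 in every library, which is no check of the meningeal label. Their sum was 123 to 264 CPM in withdrawal, against 123 to 288 CPM in control. Control 2 had 123 CPM, while the leptomeningeal genes of the set summed to 15.1 CPM there, against 138 to 181 CPM in the other controls.

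In withdrawal most of these genes showed no detectable difference from control when all 10 libraries were compared. Fibronectin (Fn1), a glycoprotein that links collagens to integrins on the cell surface, was the 1 gene that fell, and 0 rose. Across all 19251 genes, edgeR's quasi-likelihood test called 4 higher (0.0208%) and 23 lower (0.119%), 27 in all (0.140%), at an adjusted p under 0.05. With scaling by library totals alone, 7 genes were called over the whole table, 0 higher and 7 lower. At an unadjusted p under 0.05, 5 of the 61 genes were higher and 5 lower, where the background was 5.88% higher and 8.95% lower. The withdrawal values lay above all control values in 2 of the 61 (Lama3 and Col15a1), with a background of 1.57%. They lay below all control values in 2 (Fn1 and Col4a1), with a background of 1.62%. The DESeq2 Wald test called Lama3 higher (background 0.913%) and Fn1 and Col20a1 lower (background 1.44%), 3 of the 59 matrix genes it gave an adjusted p, where 2.35% of the 17628 genes with one were called. The log2 changes were above 0 in 29 genes and below 0 in 32, where 51.0% of all genes were above 0 and 49.0% below, with a median of −0.03, and the median over all genes tested was 0.01.

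**Figure D1:**
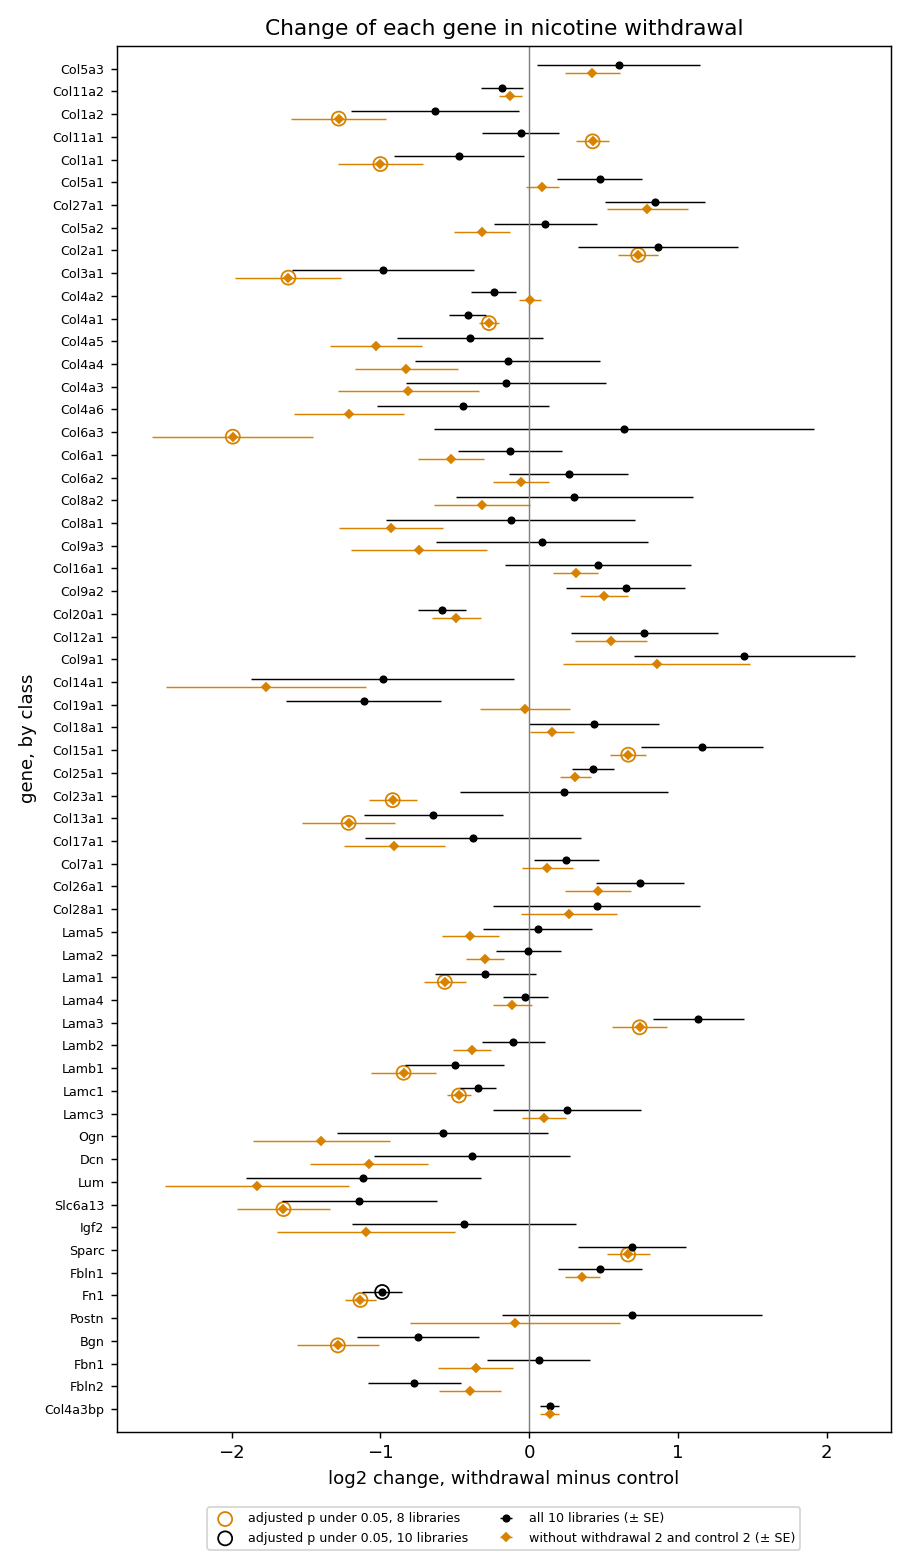
log2 change (withdrawal minus control, edgeR, bars show the SE, circles mark an adjusted p under 0.05) of the matrix genes reported singly, by class, over all 10 libraries and over the 8 libraries without withdrawal 2 and control 2. Type IV collagens and the leptomeningeal genes lie on the negative side with all 10 libraries, and several genes move further down in the 8 libraries.

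These genes varied widely between the 10 libraries, withdrawal 2 and control 2 included. Over these 10 libraries the median biological coefficient of variation of the 61 genes was 0.454, and that of all genes tested was 0.224. In 52 of the 61 genes it was above the median of all genes, and 22 lay in the top 10% of all genes. The coefficient was not computed for the 8 libraries without withdrawal 2 and control 2. Control 2 was the lowest control in 52 of the 61 genes and the lowest of all 10 libraries in 43. Control 2 is also the library with the high hippocampal and cortical neuron sum, and the part of that sum in these counts was not tested. Withdrawal 1, 3 and 5 were the 3 lowest withdrawal libraries in 25 genes. These counts of lowest libraries were not made over all genes tested, so they show no trait particular to this set.

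**Figure D2:**
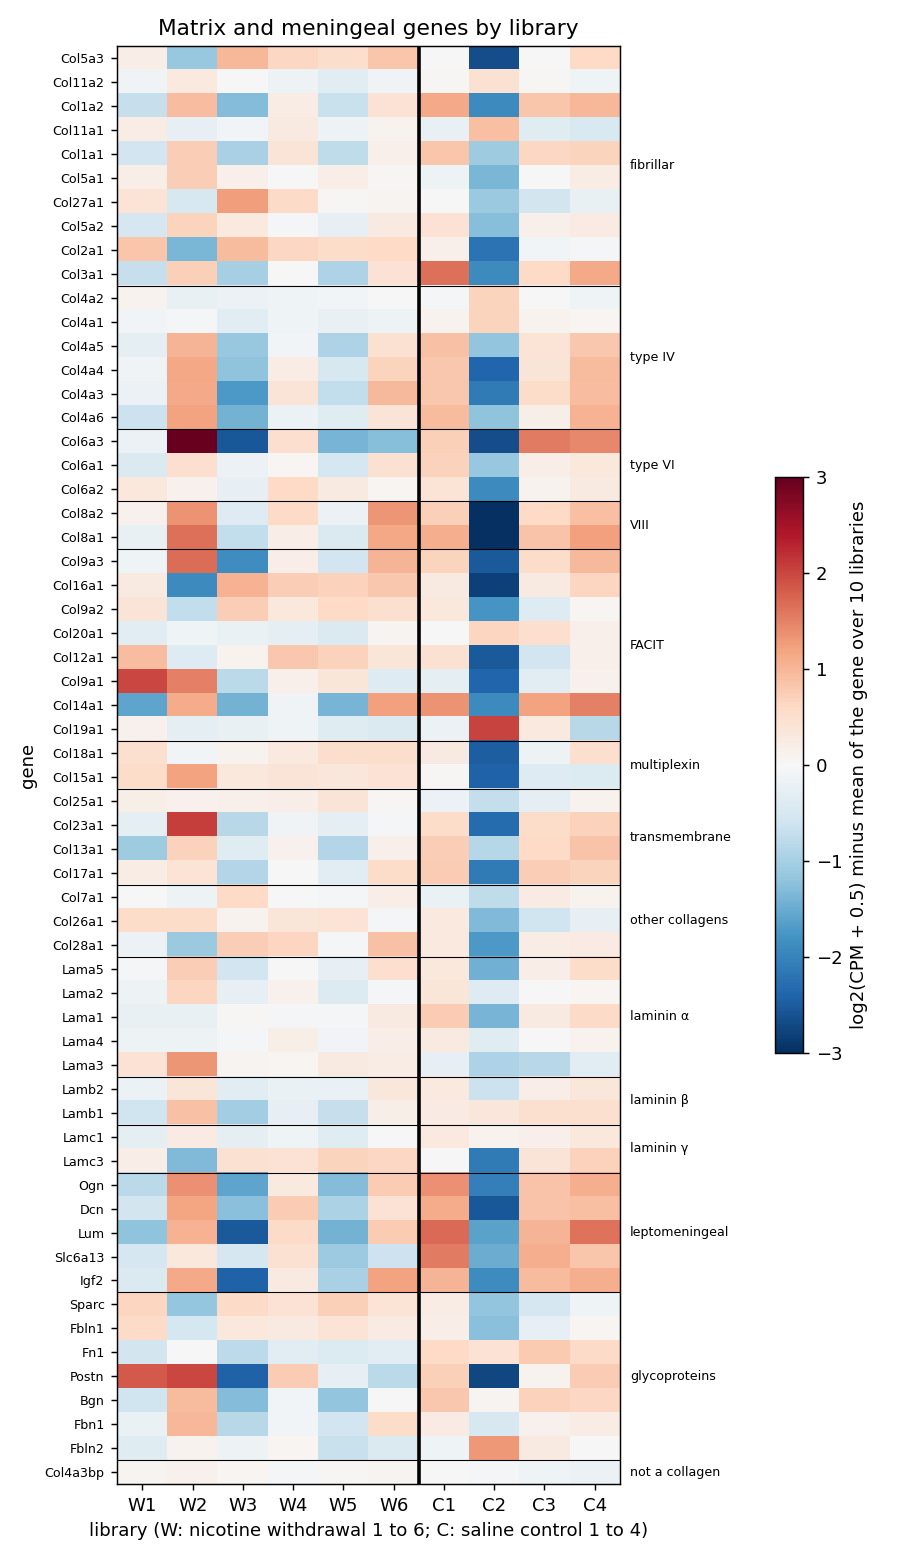
Level of the genes reported singly in each library, as log2(CPM + 0.5) minus the gene's mean over the 10 libraries, with colours limited to 3 log2 units either side. Genes run down the page by class and withdrawal libraries stand left of controls; control 2 is low in most rows, and withdrawal 2 is high for Dcn, Ogn and Col9a3 and low for Sparc and Col16a1.

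Among the glycoproteins and proteoglycans that bind collagen and cells, Fn1 had 31.8, 46.8, 27.1, 37.8, 35.2 and 36.6 CPM in withdrawal libraries 1 to 6, against 70.6, 63.3, 80.7 and 70.2 CPM in controls 1 to 4. The groups did not overlap, and even withdrawal 2 and control 2 kept to their sides. The mean was 35.9 ± 6.60 CPM in withdrawal (SD, n = 6) and 71.2 ± 7.17 CPM in control (SD, n = 4), and the log2 change of −0.99 ± 0.136 (± SE) passed the test (edgeR adjusted p = 0.0293). The call was lost (edgeR adjusted p up to 0.150) when control 1, 3 or 4 or withdrawal 1, 3, 4, 5 or 6 was left out, and kept without withdrawal 2 or control 2, while the log2 change stayed between −1.13 and −0.74 over the 20 alternatives run. Scaling by library totals (edgeR adjusted p = 0.0875) and limma on log2 FPKM (adjusted p = 0.0907 and 0.0985) also ended the call. Sparc, a secreted glycoprotein that binds collagen, was the most abundant gene of the set per length, with a mean of 136 FPKM. Its level was 719.6, 204, 686, 624.5, 751 and 608 CPM in withdrawal 1 to 6, and 540.1, 201, 324 and 417 CPM in controls 1 to 4. Withdrawal 2 and control 2, the libraries with little Chat, had the lowest Sparc levels of their groups, and the other 5 withdrawal libraries lay above the other 3 controls. Sparc did not pass the test with all 10 libraries (log2 change 0.69 ± 0.361, edgeR adjusted p = 0.389).

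Biglycan (Bgn), a small proteoglycan of collagen fibrils, had 11.4, 34.7, 6.90, 16.8, 7.51 and 17.5 CPM in withdrawal, against 31.1, 18.7, 28.8 and 27.5 CPM in control. Withdrawal 2 was the highest library of all and control 2 the lowest control, so the groups overlapped through these 2 libraries (log2 change −0.75, edgeR adjusted p = 0.408). Fbln1 and Fbln2, fibulins that join basement membranes to elastic fibres, went different ways without passing the test. Fbln1 had 41.0, 18.8, 34.0, 33.0, 36.5 and 32.4 CPM in withdrawal, against 31.5, 11.1, 22.9 and 28.3 CPM in control (log2 change 0.48 ± 0.283, edgeR adjusted p = 0.439). Fbln2 had 3.12, 4.53, 3.70, 4.34, 2.44 and 2.92 CPM in withdrawal, against 3.77, 11.0, 5.11 and 4.11 CPM in control (log2 change −0.77 ± 0.314, edgeR adjusted p = 0.311). Withdrawal 2 and control 2 were the lowest of their groups for Fbln1 and the highest of their groups for Fbln2. Periostin (Postn), a matricellular protein, varied widely between withdrawal animals, from 2.95 CPM in withdrawal 3 to 74.6 CPM in withdrawal 2, against 2.31 to 31.0 CPM in control. Fibrillin (Fbn1), the backbone of microfibrils, had 11.6 to 42.6 CPM in withdrawal and 14.9 to 25.1 CPM in control.

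**Figure D3:**
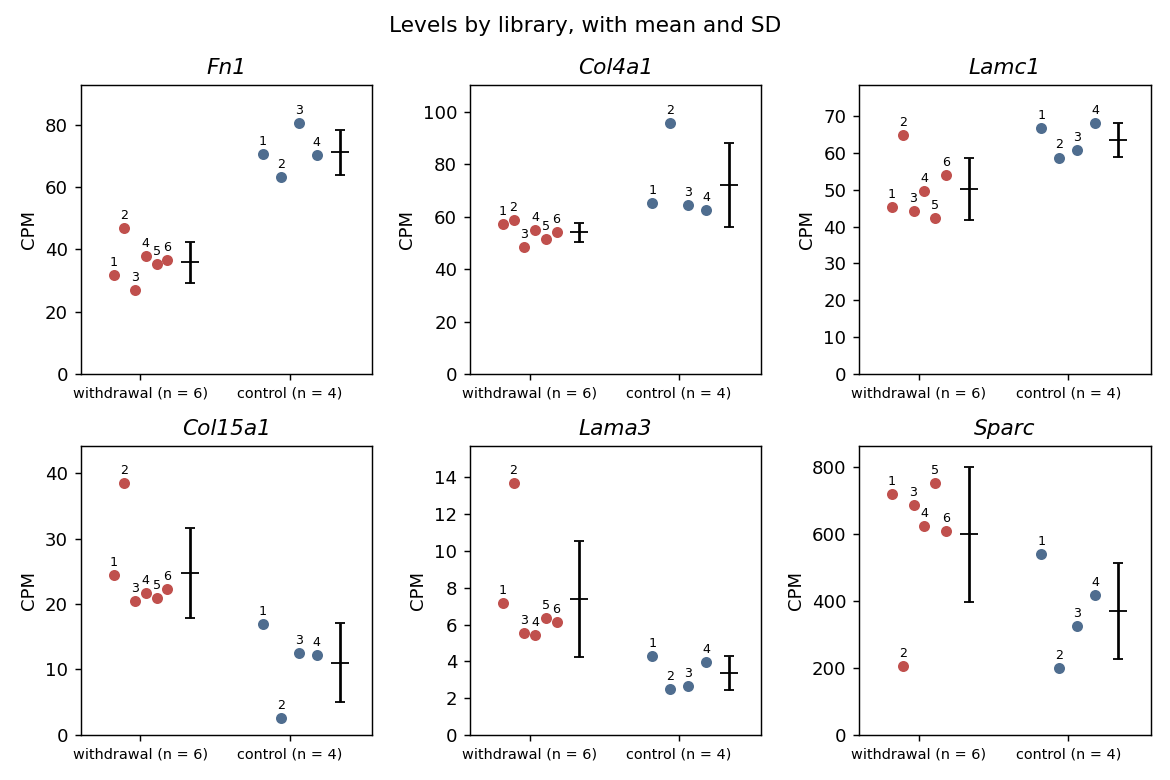
CPM of selected matrix genes in each library, one panel per gene with its own linear axis; points are single mice, withdrawal left of control, numbered by replicate, and bars are group means with SD. The Fn1 points of the 6 withdrawal mice lie between 27.1 and 46.8 CPM, all below the controls.

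The genes that mark the leptomeninges all had negative log2 changes, 5 of 5, with a median of −0.58, and none passed the test over 10 libraries. Decorin (Dcn), a proteoglycan that coats collagen fibrils, had 22.2, 74.9, 13.4, 56.2, 16.7 and 44.6 CPM in withdrawal 1 to 6, against 71.3, 5.23, 59.9 and 61.8 CPM in controls 1 to 4. Lumican (Lum), of the same proteoglycan family, had 3.36, 17.7, 1.05, 12.8, 2.83 and 14.6 CPM in withdrawal, against 28.4, 2.42, 17.5 and 27.1 CPM in control. In both genes withdrawal 1, 3 and 5 were low and withdrawal 2, 4 and 6 were higher. Control 2 was as low as the low withdrawal animals for Lum and below all of them for Dcn. Ogn, the related proteoglycan osteoglycin, had 9.84, 46.1, 5.50, 21.4, 6.83 and 30.2 CPM in withdrawal, against 46.4, 3.85, 31.9 and 37.5 CPM in control. Igf2, a growth factor secreted by meninges and choroid plexus, had 5.54, 17.4, 1.00, 9.20, 3.66 and 18.3 CPM in withdrawal and 16.0, 1.71, 15.1 and 16.9 CPM in control. The same animals were low for Ogn and Igf2 as for decorin. Slc6a13, the GABA and taurine transporter GAT2 of leptomeningeal cells, had 4.19, 7.77, 4.20, 8.62, 2.63 and 3.88 CPM in withdrawal, against 19.1, 1.87, 13.7 and 11.4 CPM in control. For Slc6a13 every withdrawal animal was below controls 1, 3 and 4, and control 2 alone made the groups overlap (log2 change −1.14 ± 0.523, edgeR adjusted p = 0.343).

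**Figure D4:**
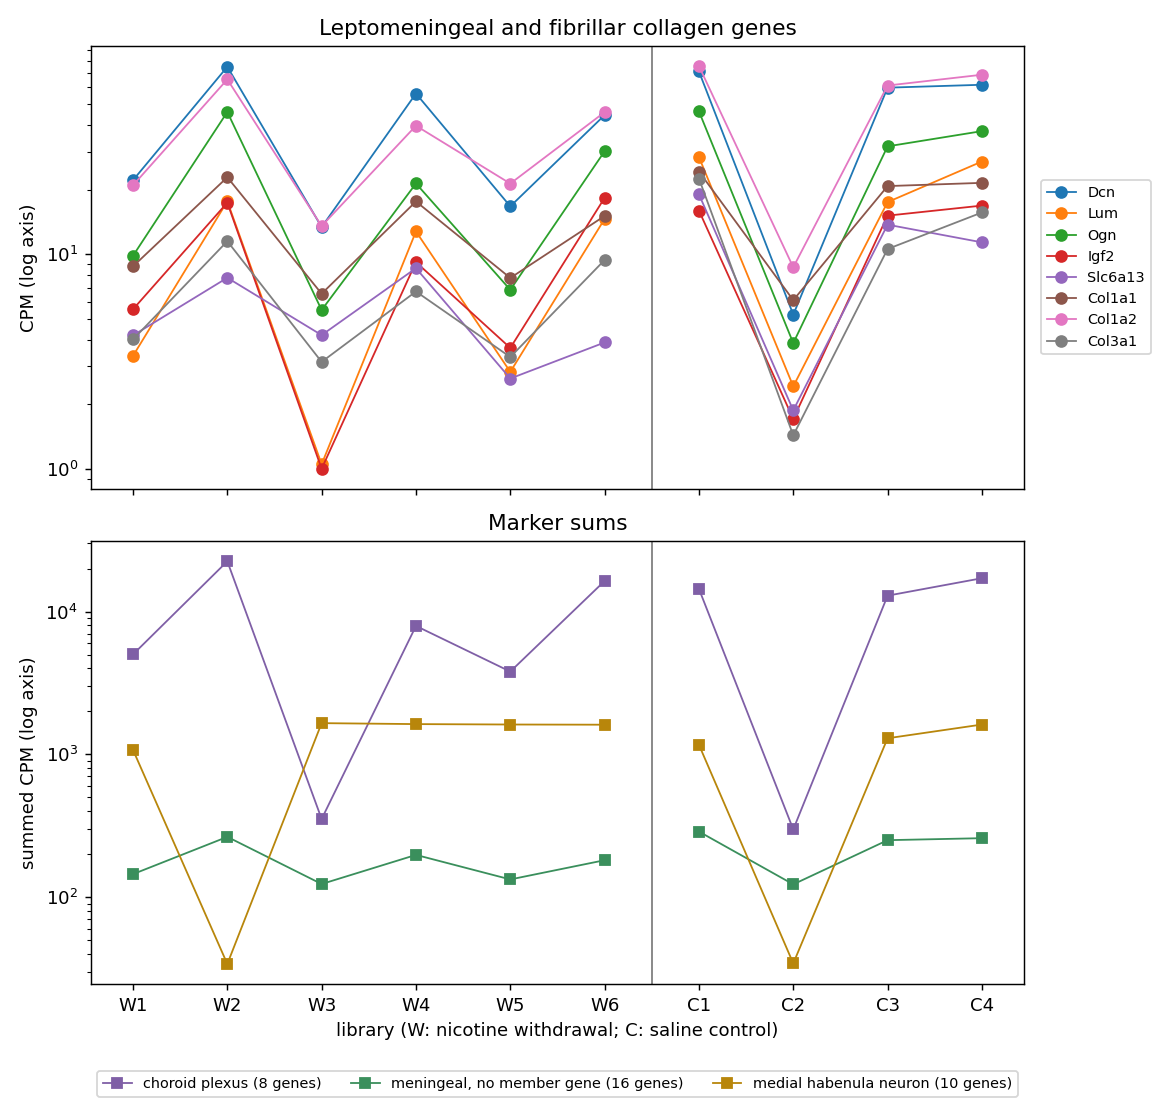
CPM of 8 leptomeningeal and fibrillar collagen genes (upper panel) and summed CPM of the meningeal, choroid plexus and habenula neuron markers (lower panel) in each library, on log axes, withdrawal left of control, with lines that only join the points of a gene or list. Withdrawal 3 and control 2 are lowest and withdrawal 2 is highest for the choroid plexus markers, at 352, 298 and 22486 CPM.

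Marker sums were low in the same animals as Dcn, Lum, Ogn and Igf2. Slc6a13 differed among the withdrawal animals, with withdrawal 6 (3.88 CPM) below withdrawal 1 (4.19 CPM) and withdrawal 3 (4.20 CPM). The 16 meningeal markers outside the set summed to 145, 264, 123, 197, 133 and 181 CPM in withdrawal 1 to 6, against 288, 123, 250.4 and 259 CPM in controls 1 to 4. The 8 choroid plexus markers summed to 5007, 22486, 352, 7927, 3796 and 16366 CPM in withdrawal, against 14404, 298, 12915 and 17111 CPM in control. Withdrawal 3, 5 and 1 were the 3 lowest on both sums, and control 2 was the lowest control on both. The 6 withdrawal libraries had the order of the choroid plexus sum in 14 of the 61 genes (23.0%), among them Lum, Ogn, Col3a1, Lamb1 and Lama5, and in 413 of the 19251 genes (2.15%). They had the order of the meningeal sum in 2 of the 61 genes (3.28%), Col1a1 and Dcn, and in 124 of the 19251 (0.644%). The part of both sums in the matrix results was not tested.

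Among the fibrillar collagens, which form the tensile fibres of connective tissue, 5 of 10 had positive and 5 negative log2 changes, and none passed the test. Col1a1 and Col1a2 are the 2 chains of type I collagen. Col1a2 had 21.0, 65.4, 13.5, 39.8, 21.4 and 46.0 CPM in withdrawal, against 75.5, 8.70, 61.3 and 68.8 CPM in control. Col1a1 had 8.78, 22.9, 6.55, 17.6, 7.76 and 15.1 CPM in withdrawal, against 24.3, 6.11, 20.8 and 21.5 CPM in control. Both chains, like decorin, were low in withdrawal 1, 3 and 5 and in control 2. Col3a1, the type III chain of distensible tissue, had 4.01, 11.5, 3.15, 6.71, 3.32 and 9.41 CPM in withdrawal, against 22.6, 1.43, 10.6 and 15.7 CPM in control. Other fibrillar chains did not share this order of animals. Col5a3, a type V chain, had 43.9, 17.0, 76.7, 58.5, 55.5 and 68.6 CPM in withdrawal, against 38.6, 5.56, 38.6 and 57.6 CPM in control, with withdrawal 3 highest and withdrawal 2 lowest of the withdrawal animals. Col2a1, best known from cartilage, had 2.56 CPM in withdrawal 2 and 11.1 to 14.7 CPM in the other withdrawal animals, against 1.21 CPM in control 2 and 7.06 to 8.39 CPM in the other controls. Col27a1, a fibrillar chain of developing cartilage, had 25.1, 13.2, 45.0, 27.8, 19.0 and 19.8 CPM in withdrawal, against 18.7, 8.31, 12.7 and 15.9 CPM in control. All withdrawal animals but withdrawal 2 were above all controls (log2 change 0.85 ± 0.337, edgeR adjusted p = 0.306). Col11a2, a type XI chain, had 36.6, 48.1, 39.0, 35.3, 31.3 and 36.7 CPM in withdrawal, against 40.3, 54.6, 40.5 and 36.2 CPM in control, and withdrawal 2 and control 2 were the highest of their groups. Col11a1, its partner chain, had 30.4 to 43.4 CPM in withdrawal, against 68.4 CPM in control 2 and 26.4 to 31.0 CPM in the other controls. The remaining chains overlapped: Col5a1 had 13.6 to 23.1 CPM in withdrawal and 4.96 to 15.9 CPM in control, and Col5a2 had 6.13 to 14.5 CPM in withdrawal and 3.36 to 12.3 CPM in control.

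Type IV collagen, the network former of basement membranes, is encoded by 3 pairs of neighbouring genes. The log2 changes of all 6 were negative (median −0.32) with none past the test, where 49.0% of all genes were below 0. Those of Col4a3 (−0.16 ± 0.673) and Col4a4 (−0.14 ± 0.623) were small against their SE. In the 8 libraries that of Col4a2 was 0.0068 and the other 5 were negative. Col4a1 and Col4a2 make the trimer found in all basement membranes, and they start head to head. In the RefSeq annotation of GRCm38.p6 the starts used for the windows lie 21 bases apart on chromosome 8. The windows, from 250 bases before to 50 after each start, therefore overlap. The gene bounds overlap as well, since Col4a1 (minus strand) reaches 11312889 and Col4a2 (plus strand) begins at 11312805. Both are shown because the starts lie so close together. The windows are Col4a2 at chr8:11312555-11312854 (plus strand) and Col4a1 at chr8:11312777-11313076 (minus strand), with the 78 shared bases, chr8:11312777-11312854, in capitals.
Col4a2: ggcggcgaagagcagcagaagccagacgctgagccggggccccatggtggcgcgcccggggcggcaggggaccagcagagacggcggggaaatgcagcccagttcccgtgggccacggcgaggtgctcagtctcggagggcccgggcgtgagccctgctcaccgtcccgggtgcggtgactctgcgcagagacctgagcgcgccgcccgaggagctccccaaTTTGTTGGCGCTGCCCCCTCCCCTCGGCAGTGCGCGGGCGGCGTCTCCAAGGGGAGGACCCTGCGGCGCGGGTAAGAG
Col4a1: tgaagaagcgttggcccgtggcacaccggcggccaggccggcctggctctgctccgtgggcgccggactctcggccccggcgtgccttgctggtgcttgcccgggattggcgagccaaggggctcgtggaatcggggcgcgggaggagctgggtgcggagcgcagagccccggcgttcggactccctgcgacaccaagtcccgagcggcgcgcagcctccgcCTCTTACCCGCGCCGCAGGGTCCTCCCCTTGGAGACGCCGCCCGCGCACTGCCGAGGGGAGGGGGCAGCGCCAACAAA
Both windows hold CCAAT and GGGCGG on at least 1 strand, and the shared bases hold GGGCGG. Of all 32851 windows of this length, 37.4% held CCAAT and 35.7% held GGGCGG, and of the 53 windows of 43 genes in the set, 17 held CCAAT and 30 held GGGCGG. A match of letters is a description and not a binding site.

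Col4a1 had 57.1, 58.7, 48.6, 54.9, 51.6 and 54.2 CPM in withdrawal 1 to 6, against 65.4, 96.0, 64.6 and 62.5 CPM in controls 1 to 4. All withdrawal animals were below all controls, and control 2 was far above the other 3 controls (log2 change −0.41 ± 0.123, edgeR adjusted p = 0.267). Col4a2 had 74.6, 59.4, 61.3, 63.5, 64.9 and 68.6 CPM in withdrawal, against 66.3, 109.7, 68.9 and 63.4 CPM in control, and its groups overlapped. Control 2, the lowest control in most of the set, was the highest library for both genes. The count ratio of Col4a1 to Col4a2 stayed between 0.77 and 0.99 over the 10 libraries, a 1.29-fold range, while the genes themselves ranged 1.97-fold and 1.85-fold. The ratio was 0.77, 0.79, 0.87, 0.79 and 0.79 in withdrawal 1, 3, 4, 5 and 6, below the 0.99, 0.94 and 0.99 of controls 1, 3 and 4. Withdrawal 2 had 0.99 and control 2 had 0.875.

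Col4a3 and Col4a4, chains of the specialised network known from the kidney glomerulus, also start next to each other. In GRCm38.p6 the gene bounds of Col4a4 (minus strand) and Col4a3 share 114 bases, chr1:82586921-82587034, given in capitals in the Col4a4 window chr1:82586800-82587099, shown as the counterpart of the first pair.
Col4a4: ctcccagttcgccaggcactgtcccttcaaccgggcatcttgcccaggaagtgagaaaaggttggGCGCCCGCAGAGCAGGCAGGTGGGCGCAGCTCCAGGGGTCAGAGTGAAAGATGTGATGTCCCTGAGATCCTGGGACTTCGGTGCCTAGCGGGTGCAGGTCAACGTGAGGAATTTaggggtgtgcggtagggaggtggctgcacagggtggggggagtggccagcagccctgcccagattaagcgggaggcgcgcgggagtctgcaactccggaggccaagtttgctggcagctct
On neither strand does this window hold CCAAT or the other motif above. The TATA motif (TATAAA), which was in 13.6% of all windows and in 6 of the 53, is also not among its letters. Counts over overlapping exons cannot be assigned by strand here, for this pair or for Col4a1 and Col4a2. Col4a3 had 6.07, 15.9, 1.75, 9.25, 4.00 and 14.1 CPM in withdrawal, against 12.7, 1.21, 10.4 and 13.6 CPM in control. Col4a4 had 8.02, 20.0, 3.45, 10.2, 6.10 and 14.2 CPM in withdrawal, against 15.6, 1.27, 11.4 and 17.2 CPM in control. The animals stood in the same order for both genes within each group, which was also the order of the choroid plexus sum. Their ratio ranged 1.96-fold over the libraries, and the genes ranged 13.1-fold and 15.8-fold. The X-linked pair, Col4a5 and Col4a6, whose starts are 1343 bases apart, were also low in withdrawal 3 and control 2. Col4a5 had 6.80 to 32.1 CPM in withdrawal and 6.55 to 29.0 CPM in control, and Col4a6 had 1.50 to 11.8 CPM in withdrawal and 1.82 to 10.5 CPM in control.

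**Figure D5:**
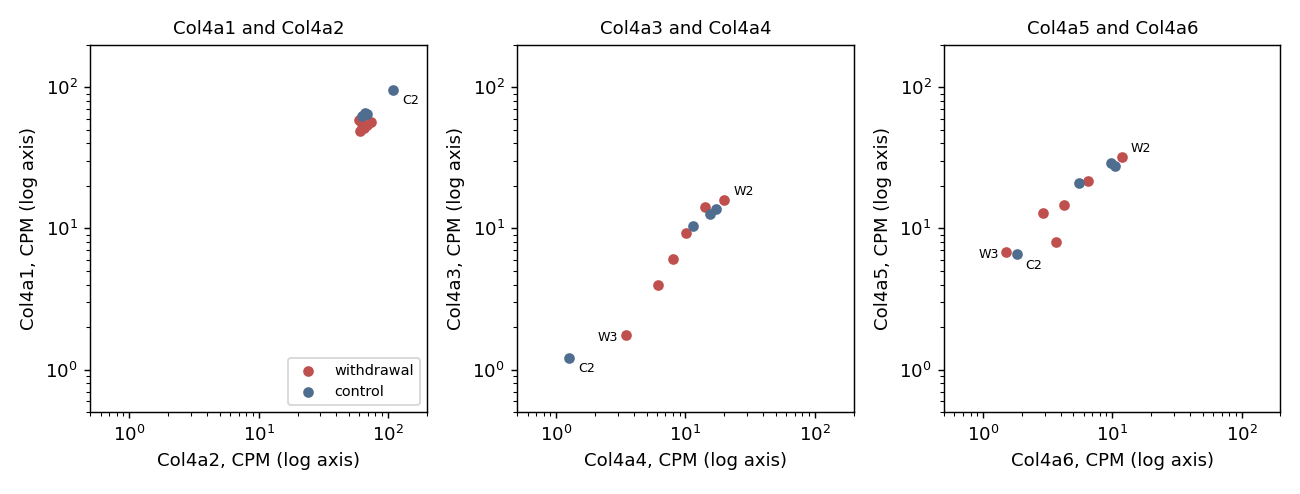
CPM of one gene of each type IV collagen pair against its partner, on log axes, with a point for each mouse, coloured by group, and control 2 (C2) and, in 2 of the panels, withdrawal 2 and 3 (W2, W3) labelled. Col4a1 and Col4a2 lie in a narrow range with control 2 at its top, and the other pairs spread over about a decade with control 2 near the bottom.

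The network collagens Col8a1 and Col8a2, which form the lattice under corneal and vascular endothelium, had the widest range between animals of any pair compared. Col8a1 had 28.4, 105, 19.7, 38.1, 24.5 and 74.7 CPM in withdrawal, against 71.3, 0.771, 60.9 and 78.5 CPM in control. Col8a2 had 46.6, 109, 32.3, 64.5, 37.4 and 106 CPM in withdrawal, against 69.7, 0.771, 64.6 and 79.1 CPM in control. Control 2 almost lacked both. The count ratio of Col8a1 to Col8a2 was 0.59 to 0.96 in withdrawal and 0.94 to 1.02 in control, with 1 withdrawal animal inside the control range.

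Type VI chains, which form beaded filaments around cells, did not move together. Col6a3 had 9.73, 163, 1.50, 16.0, 3.90 and 4.31 CPM in withdrawal, against 18.7, 1.32, 33.8 and 31.1 CPM in control. Withdrawal 2 was far above every other animal and the other 5 withdrawal animals lay below controls 1, 3 and 4, while the log2 change over all 10 was 0.64 (edgeR adjusted p = 0.836). Col6a1 had 6.54, 13.0, 7.95, 9.43, 6.15 and 12.5 CPM in withdrawal, against 14.9, 3.85, 10.5 and 11.4 CPM in control, with wide overlap. Col6a2 had 6.10 to 11.5 CPM in withdrawal, and 1.60 CPM in control 2 was the lowest control.

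Of the 8 FACIT collagens, which sit on the surface of larger fibrils, 5 had positive and 3 negative log2 changes. Col16a1 had 79.2, 17.1, 136, 109.9, 107 and 116 CPM in withdrawal, against 80.2, 9.14, 80.1 and 104 CPM in control, so withdrawal 2 and control 2 were the lowest of their groups. Col9a3, a type IX chain, had 84.1, 299, 24.9, 106, 62.5 and 189 CPM in withdrawal, against 149, 15.6, 135 and 182 CPM in control, in the order of the choroid plexus sum. Col20a1 had 6.13, 7.28, 6.90, 6.42, 5.81 and 8.45 CPM in withdrawal, against 7.87, 12.6, 11.5 and 8.97 CPM in control, with withdrawal 6 alone above the lowest control (log2 change −0.58 ± 0.162, edgeR adjusted p = 0.256). These chains of one family thus differed in which animals were high, with Col16a1 high where Col9a3 was low in withdrawal 3. Of the other 5, Col14a1 was low in withdrawal 1, 3 and 5, at 0.531 to 0.683 CPM, with 2.37 to 6.80 CPM in the other withdrawal animals, against 0.330 CPM in control 2 and 6.63 to 8.37 CPM in the other controls. Col19a1 was low everywhere but in control 2, at 1.91 to 3.07 CPM in withdrawal, against 12.9 CPM in control 2 and 1.34 to 3.53 CPM in the other controls. Col9a1 had 1.80 to 15.6 CPM in withdrawal and 0.275 to 3.88 CPM in control. Col9a2 had 7.87 to 22.9 CPM in withdrawal and 3.58 to 17.0 CPM in control, and Col12a1 had 12.4 to 31.4 CPM in withdrawal and 2.42 to 22.5 CPM in control.

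The multiplexins Col15a1 and Col18a1, which carry heparan or chondroitin sulfate and lie at the outer face of basement membranes, both had positive log2 changes. Col15a1 had 24.5, 38.4, 20.5, 21.7, 21.0 and 22.3 CPM in withdrawal, against 16.9, 2.64, 12.5 and 12.2 CPM in control. All 6 withdrawal animals were above all 4 controls, and withdrawal 2 and control 2 were the extremes (log2 change 1.16 ± 0.410, edgeR adjusted p = 0.278). Col18a1, the source of endostatin, had 37.2, 25.0, 28.8, 32.7, 38.8 and 38.7 CPM in withdrawal, against 32.4, 4.40, 24.1 and 38.3 CPM in control, and apart from control 2 the groups overlapped.

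The transmembrane collagens span the membrane of the cell that makes them. Col25a1, made by neurons, had 202, 193, 199, 203, 233 and 181 CPM in withdrawal, against 157, 108, 144 and 190.4 CPM in control. Control 4 alone lay inside the withdrawal range (log2 change 0.43, edgeR adjusted p = 0.272). Col23a1 had 11.3, 59.7, 7.45, 12.7, 11.1 and 13.4 CPM in withdrawal, against 20.5, 2.37, 20.4 and 22.4 CPM in control. As for Col6a3, the other 5 withdrawal animals lay below the other 3 controls, while the log2 change over all 10 libraries was 0.23. Of the collagens outside these classes, Col26a1 had 10.7, 10.8, 7.75, 9.48, 9.71 and 6.91 CPM in withdrawal, against 8.91, 2.59, 4.56 and 5.96 CPM in control (log2 change 0.75 ± 0.295, edgeR adjusted p = 0.303). Control 1 alone lay inside the withdrawal range. Col7a1, the anchoring fibril collagen of skin, had 11.1, 9.89, 16.8, 11.0, 10.7 and 12.7 CPM in withdrawal, against 9.43, 6.22, 13.1 and 11.8 CPM in control. Col4a3bp, the gene that is no collagen, had 134, 139, 131, 121, 128 and 133 CPM in withdrawal, against 126, 123, 115 and 111 CPM in control, a narrow spread with overlapping groups. The lowest collagens kept near 0 in control 2: Col17a1 had 0.700 to 2.71 CPM in withdrawal, against 0 CPM in control 2 and up to 3.19 CPM in the other controls, and Col28a1 had 0.344 to 2.87 CPM in withdrawal and 0.0551 to 1.76 CPM in control. Col13a1 had 1.18 to 5.17 CPM in withdrawal, against 1.43 CPM in control 2 and 4.81 to 5.87 CPM in the other controls.

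Laminins are trimers of an alpha, a beta and a gamma chain, and 4 of the 10 measured chains had positive and 6 negative log2 changes. Lama3, the alpha chain of epithelial laminin, was low but higher in every withdrawal animal, at 7.19, 13.7, 5.55, 5.44, 6.34 and 6.11 CPM, against 4.29, 2.48, 2.68 and 3.98 CPM in control. The log2 change was 1.14 ± 0.306 and did not pass the test (edgeR adjusted p = 0.246). Lama1, an alpha chain of the pial basement membrane, had 8.19, 8.22, 9.80, 9.37, 9.32 and 11.6 CPM in withdrawal, against 16.6, 3.36, 11.6 and 14.7 CPM in control. Lama2, a chain of muscle and of brain vessels, hardly differed in its means (log2 change −0.0048, edgeR adjusted p = 0.992), with 18.3, 32.2, 17.1, 22.1, 15.0 and 19.6 CPM in withdrawal, against 26.1, 15.4, 20.4 and 21.3 CPM in control. For Lama1 control 2 was the lowest of all animals, and for Lama2 the groups overlapped widely. Lama5, common in mature basement membranes, had 40.2, 68.9, 27.6, 41.4, 34.4 and 58.1 CPM in withdrawal, against 51.2, 14.8, 47.0 and 60.4 CPM in control. Lama4, the chain of vessel walls, had 7.13 to 9.30 CPM in withdrawal and 6.11 to 9.82 CPM in control.

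The beta and gamma chains are shared by several laminins. Lamb1 had 26.3, 74.2, 19.0, 33.5, 24.5 and 45.3 CPM in withdrawal, against 47.6, 50.8, 55.8 and 56.0 CPM in control, and withdrawal 2 was the 1 withdrawal animal that was not below every control. Lamc1, the gamma chain of most laminins, had 45.2, 64.9, 44.2, 49.6, 42.3 and 54.1 CPM in withdrawal, against 66.6, 58.7, 60.7 and 68.1 CPM in control. Again withdrawal 2 alone reached the control range (log2 change −0.34 ± 0.121, edgeR adjusted p = 0.278). Lamb2, the chain of mature vessels and of synapses, had 46.7, 68.7, 42.4, 46.2, 45.7 and 66.9 CPM in withdrawal, against 64.6, 33.9, 61.1 and 67.5 CPM in control. Lamc3 had 33.7, 11.4, 40.6, 39.5, 47.1 and 45.1 CPM in withdrawal, against 29.1, 6.33, 38.6 and 47.3 CPM in control, and withdrawal 2 and control 2 were the lowest animals.

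Without withdrawal 2 and control 2, the comparison of 5 withdrawal animals with 3 controls gave another picture. Of the 61 genes, 18 passed the test (29.5%), 5 higher and 13 lower, where 4.80% of all genes tested were called higher and 6.18% lower, 11.0% in all. The median log2 change of the 61 genes was −0.32. Of the 10 fibrillar collagens 3 were lower and 2 higher, with 5 positive and 5 negative log2 changes and a median of −0.02. The 3 lower ones were Col3a1 with a log2 change of −1.62 ± 0.356 (edgeR adjusted p = 0.0195), Col1a2 with −1.28 ± 0.318 (edgeR adjusted p = 0.0314) and Col1a1 with −0.999 ± 0.284 (edgeR adjusted p = 0.0495), each ± SE. Col6a3 (log2 change −1.99), Col13a1 (−1.21) and Col23a1 (−0.92) were also lower. Slc6a13 was the 1 leptomeningeal gene of 5 that passed, with a log2 change of −1.65 ± 0.315 (edgeR adjusted p = 0.0114). The median log2 change of the 5 was −1.40, and Bgn was lower by a log2 change of −1.29. Fn1 was lower as it had been over 10 libraries, with a log2 change of −1.13 ± 0.104 (edgeR adjusted p = 4.47e-04). Of the laminins, Lamb1 (log2 change −0.84), Lama1 (−0.57) and Lamc1 (−0.47) fell, and Lama3 (0.74) rose. Col4a1 fell by 0.27 on the log2 scale, the smallest change called in the set. Its partner Col4a2 was not called (log2 change 0.0068, edgeR adjusted p = 0.966). The other genes that rose were Col2a1 (log2 change 0.73), Col15a1 (0.67), Sparc (0.67) and Col11a1 (0.43).

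With withdrawal 2 alone left out, edgeR called 1 of the 61 genes higher (Lama3, background 1.43%) and 2 lower (Fn1 and Lamc1, background 2.73%), against 4.16% of all genes in either direction.

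In the 8 libraries marker sums of several cell types also differed without overlap. The 16 meningeal markers summed to 123 to 197 CPM in withdrawal, against 250.4 to 288 CPM in control. The summed level of pericyte and smooth muscle markers was 161 to 211 CPM in withdrawal, against 218 to 284 CPM in control, and that of astrocyte markers was 2406 to 2749 CPM in withdrawal, against 3099 to 3619 CPM in control. The oligodendrocyte sum was lower in withdrawal as well, and so was that of hippocampal and cortical neurons, at 226 to 267 CPM, against 335 to 610 CPM in control. The markers of thalamic and lateral habenula neurons were higher, at 1113 to 1607 CPM in withdrawal, against 722 to 1022 CPM in control. The choroid plexus sum overlapped, at 352 to 16366 CPM in withdrawal and 12915 to 17111 CPM in control. So did that of endothelium, at 252 to 348 CPM in withdrawal and 323 to 362 CPM in control. The sum of microglia and macrophages overlapped too, at 187 to 238 CPM in withdrawal and 227 to 248 CPM in control, as did those of ependyma, blood and medial habenula neurons. The part of these sums in the 18 calls was not tested.

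Of 110 further genes of matrix biology, in lists chosen with earlier results known, 101 were measured and 1 passed the test over 10 libraries. That gene was Mmp14, the membrane-bound protease that cleaves fibrillar collagen and fibronectin and activates other metalloproteases. It had 38.4, 37.1, 32.1, 35.1, 32.0 and 38.5 CPM in withdrawal, against 21.4, 18.1, 22.9 and 25.1 CPM in control, with no overlap, and rose by a log2 change of 0.70 ± 0.106 (edgeR adjusted p = 0.0430). The 101 genes had 0 calls with scaling by library totals, without a minimum level, with limma, and when any 1 of control 1, 3 and 4 and withdrawal 1, 3, 4, 5 and 6 was left out. Of 13 other genes of matrix degradation none passed, and the next was Mmp17, a membrane-anchored metalloprotease, with a log2 change of −1.86 (edgeR adjusted p = 0.211). None of 28 genes for collagen processing and secretion passed, the nearest being P4ha1, a prolyl hydroxylase subunit, with a log2 change of −0.55 (edgeR adjusted p = 0.273), and Mia3, a cargo receptor for collagen export, with −0.18 (edgeR adjusted p = 0.275). None of 12 collagen and laminin receptors passed, with the laminin-binding integrin Itga7 at a log2 change of −1.02 (edgeR adjusted p = 0.273) and the collagen-binding integrin Itga11 at −0.48 (edgeR adjusted p = 0.350). Among 15 genes of TGF-beta signalling, which drives matrix synthesis, 0 passed. The nearest there were Bambi, a decoy receptor, at a log2 change of −0.46 (edgeR adjusted p = 0.267) and Ski, a repressor of Smad proteins, at −0.79 (edgeR adjusted p = 0.286). None of 12 other basement membrane genes passed, with the matricellular genes Smoc2 at a log2 change of −1.39 (edgeR adjusted p = 0.367) and Smoc1 at 0.37 (edgeR adjusted p = 0.580). None of 20 fibrous and elastic matrix genes passed, with Aspn, a proteoglycan, at a log2 change of −1.02 (edgeR adjusted p = 0.267) and Fbln5, which assembles elastic fibres, at 1.14 (edgeR adjusted p = 0.267). Over all 101 genes, 4 were higher and 15 lower at an unadjusted p under 0.05, where the background was 5.88% higher and 8.95% lower. In the 8 libraries 22 of the 101 passed (21.8%), 4 higher and 18 lower, where 4.80% of all genes tested were called higher and 6.18% lower, 11.0% in all.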

How the data were processed

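RNA of 10 mice, from material labelled as medial habenula, was sequenced, 6 after nicotine withdrawal and 4 controls, 1 library each. The deposited table held 56691 genes with read counts and FPKM per library, per the file headers. The count columns were whole numbers made by the authors, and the deposited FPKM were proportional to them (largest relative gap 0.00119 over 1406 genes). The submitters' processing notes list HISAT2 2.2.1, HTSeq 0.6.1 and cutadapt 1.9.1, and the mouse build mm39. Neither the annotation release nor the strand setting is given in the sources used here, so overlapping and antisense genes, such as Col4a3 and Col4a4 or Igf2 and its antisense transcript, cannot be told apart. Symbols were matched for 52073 identifiers.

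The 19251 genes with a mean of at least 0.3 FPKM, holding at least 99.76% of each library's counts, were tested with the quasi-likelihood test of edgeR 4.0.16 (R 4.3.3, TMM factors, 2-sided, Benjamini-Hochberg over all genes, threshold 0.05). SE is the log2 change over the square root of the F statistic. Levels are CPM with TMM factors, computed from the counts. Counting precision covers counting error only. On simulated counts for this comparison over 19251 genes, the test recovered 14.9% of genes changed 1.5-fold, 50.7% changed 2-fold and 93.9% changed 4-fold, with 1 false call among 107. The changed genes were drawn at random from all tested genes above a low level, so these shares are not those of the matrix genes.

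The genes, the lists, the comparison without withdrawal 2 and control 2 and the other tests were chosen with earlier results of these data known. Values in every library are given for genes past the threshold, the 5 genes with a positive and the 5 with a negative log2 change that had the smallest unadjusted p, the 2 of each class with the highest FPKM, and a fixed list of main chains and meningeal genes; others given so were chosen after their values were seen. A laminin chain counted in the set is not reported singly here or shown in the figures. Of the other lists, genes past the threshold and the 2 with the smallest p are named. Alternatives were other scaling (DESeq2 1.42.0 size factors, library totals), other minimum levels, the DESeq2 Wald test, limma 3.58.1 on log2(FPKM + 1) and log2(FPKM + 0.1), a replicate block and leaving out each library. Promoter windows come from RefSeq GRCm38.p6, another build than that of the counts.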

Additional observations from a re-analysis of the deposited data

Results flagged for a closer look

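In groups of 4 to 6 animals, a value was marked when its gap to the nearest other value took a share of the group's range above Dixon's 95% limit. Of 86 groups, 2 for each of the 43 genes given in every library, 9 were marked. Chance marks about 1 in 20 groups, but that rate holds for independent groups, and these genes share libraries and were partly chosen with their values known, so the count is only a description. All 9 values came from withdrawal 2 or control 2, the libraries with little Chat.

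Withdrawal 2 was high for Col6a3 (163 CPM, others 1.50 to 16.0 CPM), Col23a1 (59.7 CPM, others 7.45 to 13.4 CPM), Col15a1 (38.4 CPM, others 20.5 to 24.5 CPM) and Lama3 (13.7 CPM, others 5.44 to 7.19 CPM), and low for Sparc (204 CPM, others 608 to 751 CPM). Control 2 was high for both ubiquitous type IV chains, Col4a2 (109.7 CPM, others 63.4 to 68.9 CPM) and Col4a1 (96.0 CPM, others 62.5 to 65.4 CPM). It was low for Col23a1 (2.37 CPM, others 20.4 to 22.4 CPM) and Igf2 (1.71 CPM, others 15.1 to 16.9 CPM).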

How the results depend on the processing

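Of all genes tested, 27 were called in the comparison of 10 libraries, and of the 61 matrix genes 1 (Fn1). DESeq2 size factors, a minimum of 1 FPKM and no minimum gave 25, 31 and 21 calls over all genes and left 1 matrix gene called. Scaling by library totals gave 7, limma on log2(FPKM + 1) 14 and limma on log2(FPKM + 0.1) 7, each with 0 matrix genes, 0 of the 39 matrix genes that the rule in the methods names and 0 genes of the other lists. The DESeq2 Wald test gave 414 calls, 3 of them matrix genes (Lama3 higher, Fn1 and Col20a1 lower), and 2 calls in the other lists. Without a minimum level the other lists had 0 calls. The replicate block on replicates 1 to 4 gave 0 calls over all genes, 0 of them matrix genes, and the same 8 libraries unblocked, a comparison added after the data were seen, gave 0 as well. Correlations of the deviations of same-numbered samples were 0.12, 0.24, −0.09 and 0.29, and those of differently numbered samples ran from −0.33 to 0.25. For withdrawal 1, 2 and 4 the control of the same number gave the highest value. These values do not settle whether the numbers are pairs. The labels give no batch, and the main comparison was made without pairs. Leaving out 1 library at a time gave 4 to 800 calls over all genes, 0 to 3 matrix genes and 0 to 3 of the 39, and 0 to 10 genes of the other lists; the highest counts were without withdrawal 2, when Fn1 and Lamc1 were lower and Lama3 higher. Without withdrawal 2 and control 2 together, 2113 genes were called, 18 of them matrix genes, 14 of these among the 39, and 22 were in the other lists. In that comparison Col6a3 (log2 change −1.99) and Col23a1 (−0.92) were past the threshold on the other side of 0. The cause of these differences was not tested.

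Fn1 kept a negative change under the 20 alternatives and passed the threshold in 7, with edgeR, limma or DESeq2 adjusted p of 1.89e-07 to 0.337. The median log2 change of the matrix genes was −0.21 to 0.13 when 1 library was left out. Of 774 values of the 39 genes under an alternative, 744 stayed on their side of the threshold with the direction they had where called (43 of them had the other sign, past the threshold in neither comparison), 15 newly passed, 13 no longer passed and 2 reversed. Over these alternatives 11 of the 39 genes changed sign at least once (Col4a2, Col6a1, Col6a3, Col8a1, Col8a2, Col9a3, Col23a1, Lama2, Lama5, Lamb2 and Lamc3). Simulated 1.5-fold changes were recovered in 14.9% of cases, for genes drawn at random from all tested genes above a low level. The matrix genes were more variable, with a median biological coefficient of variation of 0.454, against 0.224 for all genes tested. Recovery was not simulated for the matrix genes, so changes of theirs larger than 1.5-fold could also be missed with 10 libraries.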
